A study of Mus musculus with 48 samples.

Results

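IGHV1-55 and IGHV1-69 are 2 of the 148 IGHV genes, the segments that encode most of the variable domain of the antibody heavy chain, assigned in B cell receptor (BCR) heavy-chain libraries of the lacrimal gland (LG) and spleen. They were chosen by the number of mice that hold single clonotypes in the spleen tables, because each gives rise to clonotypes that, after sequences shared by more than 2 mice were dropped, many spleens of mice with transferred fecal microbiota and no other spleen held, and their usage in spleens of that group was therefore not tested against the other spleens. Comparisons within a mouse or library include those spleens, and their values without them are given where a call depends on it. Every deposited sequence whose assigned gene was IGHV1-55 or IGHV1-69 was taken, 284545 of 4834214 sequences with 732798 of 14545027 counts, of which IGHV1-55 had 169438 sequences and IGHV1-69 had 115107. Each count stands for 1 RNA molecule, as far as reads with a common unique molecular identifier (UMI) were collapsed into 1 consensus.

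All mice were C57BL/6 (B6). The NOD-FMT group held 10 mice gavaged with fecal microbiota of a donor strain with autoimmune dry eye disease, pooled from 30 NOD.B10.H2b animals aged over 20 weeks, and the PBS-T group held 9 mice gavaged with PBS on the same schedule. Both groups had first received ampicillin, vancomycin and metronidazole in drinking water, and feces had been mixed between their cages. The 5 NC mice were untreated. Each of the 24 mice gave 1 LG and 1 spleen library. Mixing of feces, antibiotics and gavage differed together between treated and NC mice and cannot be told apart.

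A heavy chain is assembled by joining 1 V, 1 D and 1 J segment, and the junction encodes HCDR3, the loop that varies most between antibodies. IGHV1-55 and IGHV1-69 belong to the IGHV1 (J558) family, the largest VH family of the mouse. Naive B cells carry unmutated receptors of the IgM and IgD isotypes. After activation, somatic hypermutation changes the V segment and class switching replaces IgM by IgG, IgA or IgE, and most plasma cells of the LG secrete IgA.

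Both genes are transcribed from the minus strand of chromosome 12, with coordinates given here in GRCm38 after GENCODE M21. Ighv1-55 (ENSMUSG00000095589.2) spans chr12:115208095-115208591, with exon 1 at 115208482 to 115208591 and exon 2 at 115208095 to 115208399. Ighv1-69 (ENSMUSG00000094502.5) spans chr12:115623161-115623595, with exon 1 of the transcript that has the longer exon 2 at 115623550 to 115623595 and exon 2 at 115623161 to 115623465. The last 275 bases of each exon 2, chr12:115208095-115208369 and chr12:115623161-115623435, cover nearly the whole stretch read in the libraries. They are shown 5′ to 3′ on the coding strand because the difference between the genes decides which reads are assigned to which. Capitals mark the 21 bases that differ between the reference sequences. At the marked base that is position 259 of IGHV1-69, described below, nearly all IGHV1-69 sequences of the libraries carry G, the base of IGHV1-55.
IGHV1-55: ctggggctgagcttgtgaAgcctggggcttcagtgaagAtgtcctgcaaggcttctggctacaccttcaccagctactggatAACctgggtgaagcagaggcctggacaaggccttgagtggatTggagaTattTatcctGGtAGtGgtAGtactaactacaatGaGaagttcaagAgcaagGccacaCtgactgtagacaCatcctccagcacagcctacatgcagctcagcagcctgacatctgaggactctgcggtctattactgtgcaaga
IGHV1-69: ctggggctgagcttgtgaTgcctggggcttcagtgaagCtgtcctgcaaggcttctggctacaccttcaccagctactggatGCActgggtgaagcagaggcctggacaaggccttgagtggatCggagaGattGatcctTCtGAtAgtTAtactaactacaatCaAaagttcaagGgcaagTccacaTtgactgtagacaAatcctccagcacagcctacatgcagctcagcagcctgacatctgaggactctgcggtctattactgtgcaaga
The stretches were 92.4% identical. The nearest other genes over this stretch were Ighv1-53 and Ighv1-64 for IGHV1-55, with 15 differing bases each, and Ighv1-50 and Ighv1-59 for IGHV1-69, with 8 each.

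Deposited depth was 40513 to 360216 counts per LG library and 86717 to 2302185 per spleen library. Possible cross-contamination was removed by dropping any nucleotide sequence shared by more than 2 mice within a tissue, which left 40105 to 264365 counts per LG and 71859 to 2032338 per spleen. A clonotype unites the sequences with equal IGHV and IGHJ genes and the same translated HCDR3. The LG of PBS-T mouse 5 stood apart with 17213 clonotypes, where the other LGs of its group and the other groups held between 560 and 2504, and the spleen of NOD-FMT mouse 3 was the largest with 593820. The defining isotypes of the tissues were present, since IgA made up a median of 96.6% of the LG counts of all genes other than this pair, although only 13.7% in PBS-T mouse 9. Groups of bulk libraries do not tell fewer B cells using a gene from less RNA per cell.

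IGHV1-55 was the 4th and IGHV1-69 the 9th most used of 136 genes in the spleen, by mean share of a library's clonotypes over 24 mice. In the LG they ranked 5th and 25th of 141. V primers can amplify genes unequally, which ranks of genes include. IGHV1-55 thus held a similar rank in both tissues and IGHV1-69 did not.

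IGHV1-55 made up 2.95% to 3.94% of clonotypes in the 10 NOD-FMT spleens (median 3.42%, mean 3.44% ± 0.33, SD). In the 9 PBS-T spleens it ranged from 3.08% to 4.02% (median 3.55%, mean 3.54% ± 0.31). In the NC spleens, in the order of mouse 1 to 5, it stood at 3.47%, 4.27%, 4.02%, 3.16% and 3.34% (mean 3.65% ± 0.47, n = 5). The groups overlapped over most of their range, with NOD-FMT mouse 3 the lowest spleen and NC mouse 2 the highest. Over 24 spleens its mean was 3.52% ± 0.35, between IGHV1-64 (3.80% ± 0.24) and IGHV1-72 (2.98% ± 0.21). Within mice it lay below IGHV1-64 in 18 of 24 spleens and above IGHV1-72 in 24 of 24.

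IGHV1-69 varied less between spleens. It made up 2.33% to 2.93% of clonotypes in NOD-FMT spleens (median 2.70%, mean 2.68% ± 0.17, n = 10) and 2.32% to 2.94% in PBS-T spleens (median 2.47%, mean 2.51% ± 0.18, n = 9). In the NC spleens, mouse 1 to 5, it stood at 2.74%, 2.92%, 2.77%, 2.50% and 2.88% (mean 2.76% ± 0.16, n = 5). The 3 groups overlapped, and the highest PBS-T spleen, mouse 7, lay above all NC spleens. Over 24 spleens its mean was 2.63% ± 0.19, between IGHV1-9 (2.65% ± 0.13) and IGHV1-82 (2.46% ± 0.17). Within mice it lay below IGHV1-9 in 13 of 24 spleens, with a mean difference of −0.0154 ± 0.189 points (SD), and above IGHV1-82 in 21 of 24. These orders were not tested.

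**Figure D1:**
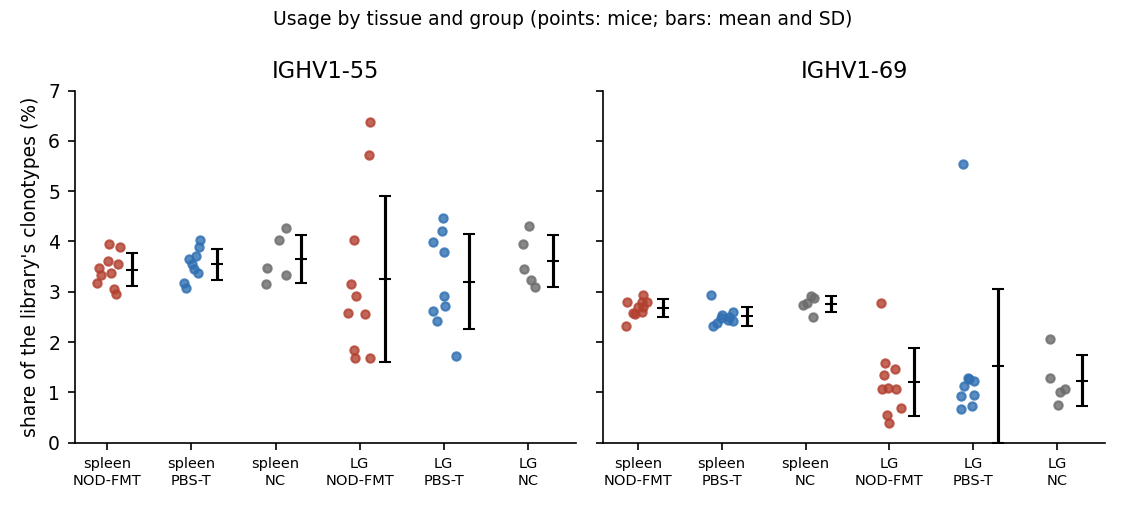
Share of a library's clonotypes (%, y axis) with IGHV1-55 (left) and IGHV1-69 (right) in the spleen and LG of NOD-FMT, PBS-T and NC mice; each point is 1 mouse, and bars give mean and SD. Most LG points of IGHV1-69 lie below its spleen points, except PBS-T mouse 2 at 5.54% and NOD-FMT mouse 9 at 2.77%, whereas IGHV1-55 spreads around the same level in both tissues.

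The PBS-T and NC spleens ask what mixing of cage feces, antibiotics and gavage without donor feces together went with. IGHV1-55 was 0.108 percentage points lower in PBS-T (p = 0.610, exact permutation test, two-sided; adjusted p = 0.978 over 75 genes). For IGHV1-69 the PBS-T mean was 0.251 points lower (p = 0.0290, exact permutation test; adjusted p = 0.724), the largest decrease among the 75 genes. Of these genes 0.0% were called at an adjusted p of 0.05, and 3 had an unadjusted p under that value.

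In the LG the shares spread more widely, since a gland held 12 to 450 clonotypes of IGHV1-55 and 3 to 212 of IGHV1-69. IGHV1-55 made up 1.68% to 6.38% of clonotypes in NOD-FMT glands (median 2.75%, mean 3.26% ± 1.65, n = 10), and 1.73% to 4.46% in PBS-T glands (median 2.92%, mean 3.20% ± 0.93, n = 9). In NC glands, mouse 1 to 5, it was 4.31%, 3.45%, 3.95%, 3.10% and 3.23%. The NOD-FMT glands covered the whole PBS-T range and reached past it at both ends, with mice 6 and 8 below it and mice 1 and 2 above it. For NOD-FMT against PBS-T the difference was 0.0523 percentage points (p = 0.934, exact permutation test over 19 mice, two-sided; adjusted p = 0.952 over 80 genes), in a comparison where 5.0% of genes were called, 3.75% as higher and 1.25% as lower in NOD-FMT.

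IGHV1-69 in the LG ranged from 0.395% to 2.77% of clonotypes in NOD-FMT (median 1.08%, mean 1.21% ± 0.67, n = 10) and from 0.664% to 5.54% in PBS-T (median 1.13%, mean 1.53% ± 1.52, n = 9). In NC glands, mouse 1 to 5, it was 0.755%, 2.07%, 1.29%, 1.06% and 1.00%. The groups overlapped, and PBS-T mouse 2 alone stood above 2.77%. NOD-FMT was 0.321 percentage points lower than PBS-T (p = 0.693, exact permutation test; adjusted p = 0.828), and without PBS-T mouse 2 the difference was 0.180 in the other direction. Some LG libraries are marked as merged by the submitters, in 6 NOD-FMT, 4 PBS-T and 1 NC mice. Within the merged libraries the differences were 0.0465 for IGHV1-55 and 0.0471 for IGHV1-69, and within the others 0.217 and −0.432, with a lowest adjusted p of 0.917 (exact permutation tests). Of the other 39 IGHV1 genes tested, 2 were higher and 0 lower in NOD-FMT glands, with a median difference of 0.0919 points beside −0.0470 over all 80 genes.

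IGHV1-69 was used less in the LG than in the spleen of the same mouse. Its share was lower in the gland of 22 of 24 mice, 1.33% ± 1.02 of clonotypes against 2.63% ± 0.19, a mean difference of −1.30 percentage points (p = 4e-05, sign-flip permutation test, two-sided; adjusted p = 0.000342 over 77 genes). This was the second largest decrease of 77 genes, of which 39.0% were called and 26.0% were called lower in the LG. The 2 mice with a higher share in the gland were PBS-T mouse 2 and NOD-FMT mouse 9. In the 14 PBS-T and NC mice alone, a setting added after the values were seen, the difference was −1.18 points (adjusted p = 0.0343 over 78 genes, permutation test). For IGHV1-55 the gland was lower in 18 of 24 mice, 3.31% ± 1.2 against 3.52% ± 0.35, and the difference of −0.211 points did not pass the test (p = 0.360, adjusted p = 0.470, permutation test). With each LG thinned to 40105 counts and each spleen to 71859, the difference of IGHV1-69 was −1.22 points (adjusted p = 0.000253, permutation test). Depth was thus equal within a tissue but not between the tissues. Of the other 39 IGHV1 genes, 4 were higher and 10 lower in the LG, with a median difference of 0.0406 beside −0.00910 over all genes. The LG libraries were mostly IgA and the spleen libraries mostly IgM, and the part of isotype in the tissue difference was not tested.

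By counts rather than clonotypes, single glands dominated. IGHV1-55 carried 13.6% of the counts in the LG of NOD-FMT mouse 1 (95% Wilson interval 13.5 to 13.8%), where the median over 24 LGs was 2.18%. IGHV1-69 carried 10.3% in the LG of PBS-T mouse 2 (10.1 to 10.5%), where the median was 0.434%. In the spleen of the same PBS-T mouse 2 it carried 7.90% (7.79 to 8.0%), and the other PBS-T spleens lay between 0.932% and 2.97%.

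Somatic hypermutation was read from the deposited number of mismatches between each sequence and its germline V gene. IGHV1-55 and IGHV1-69 differed at once in this number. Of the IGHV1-55 sequences 65.6% had no mismatch and 11.2% had 1, whereas 0.328% of the IGHV1-69 sequences had none and 74.2% had 1. In spleen IgM, the isotype of naive B cells, a mean of 71.9% ± 12.1 (SD, n = 24 mice) of IGHV1-55 sequences and 0.363% ± 0.434 of IGHV1-69 sequences were unmutated as deposited. IGHV1-55 was higher in 24 of 24 mice, by 71.6 percentage points (adjusted p = 3e-05 over 3 measures, sign-flip permutation test, two-sided).

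Nearly all of this single mismatch sat at 1 base. When IGHV1-69 sequences were aligned without gaps to this GRCm38 transcript of Ighv1-69, the substitution T259G, with positions counted from 1 at the start codon, was present in 114721 of 114800 sequences (99.9%). It falls in exon 2, at position 115623253 of chromosome 12. In each of the 48 libraries it was carried by 99.2% to 100% of the IGHV1-69 sequences. In the deposited alignments, which set each sequence against its assigned allele, position 259 counted as a mismatch in 94.7% of IGHV1-69 sequences. The next most often mismatched position of IGHV1-69, 333, was hit in 3.30% of sequences, and the same position from the start codon was the most often mismatched one of IGHV1-55, in 4.07%. The window of 41 bases around it, chr12:115623233-115623273 on the minus strand, is shown for the genome and for the most frequent sequence of the libraries, with the shared position in capitals.
GRCm38 Ighv1-69: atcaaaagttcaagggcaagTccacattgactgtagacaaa
Libraries: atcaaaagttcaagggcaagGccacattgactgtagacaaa

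**Figure D2:**
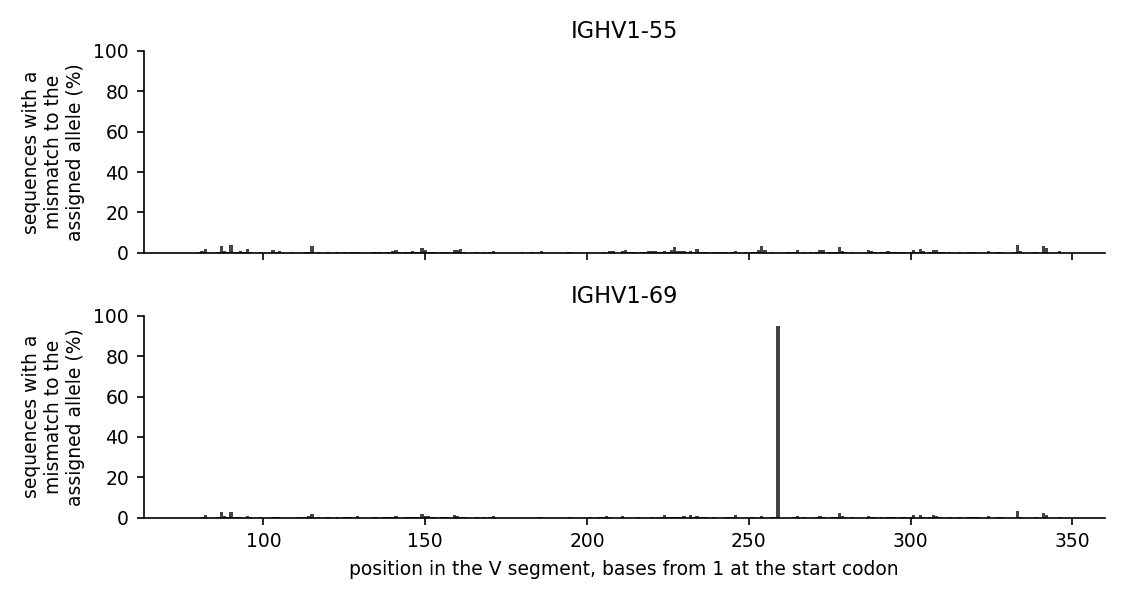
Percent of sequences (y axis) with a mismatch to their assigned germline allele in the deposited alignment at each position of the V segment (x axis, bases counted from 1 at the start codon of the GRCm38 transcript) for IGHV1-55 (top) and IGHV1-69 (bottom), all 48 libraries pooled. IGHV1-69 has 1 bar at 94.7%, at position 259, and every other position of either gene is at or below 4.07%.

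The sequences were otherwise close to the gene they were assigned to. The most frequent V stretch of IGHV1-69, 77131 of the 98141 sequences that start at the same base, had 1 mismatch to Ighv1-69 and 7 to the next genes, Ighv1-50 and Ighv1-59, among 181 V genes of the annotation. That of IGHV1-55, 99430 of 139619, had 0 mismatches to Ighv1-55 and 14 to Ighv1-53. The deposited calls split IGHV1-69 in a pair of alleles. Allele 01 had 109452 sequences, of which 0.00731% had no mismatch and 77.7% had 1. Allele 02 had 5655 sequences, of which 6.54% had none and 81.4% had 3 or more. As deposited, the shared position counted as a mismatch in 72.4% to 100% of the IGHV1-69 sequences of an LG and in 83.0% to 99.6% of those of a spleen. An alternative score, added after the values were seen, leaves this position out.

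Without that position, IGHV1-69 resembled the other genes. The unmutated share of its spleen IgM sequences ranged from 43.2% in PBS-T mouse 2 to 93.6% in NOD-FMT mouse 4, with a mean of 77.2% ± 11.7 (n = 24 mice). Of all spleen IgM sequences of IGHV1-69, 0.331% had no mismatch and 77.9% had 1 as deposited, and 77.7% and 8.85% with the position left out. For IGHV1-55 these shares were 72.7% and 10.8%. On this score IGHV1-55 was less often unmutated than IGHV1-69, lower in 19 of 24 mice by a mean of 5.26 points (adjusted p = 0.00825, sign-flip permutation test), the opposite direction to the deposited score.

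**Figure D3:**
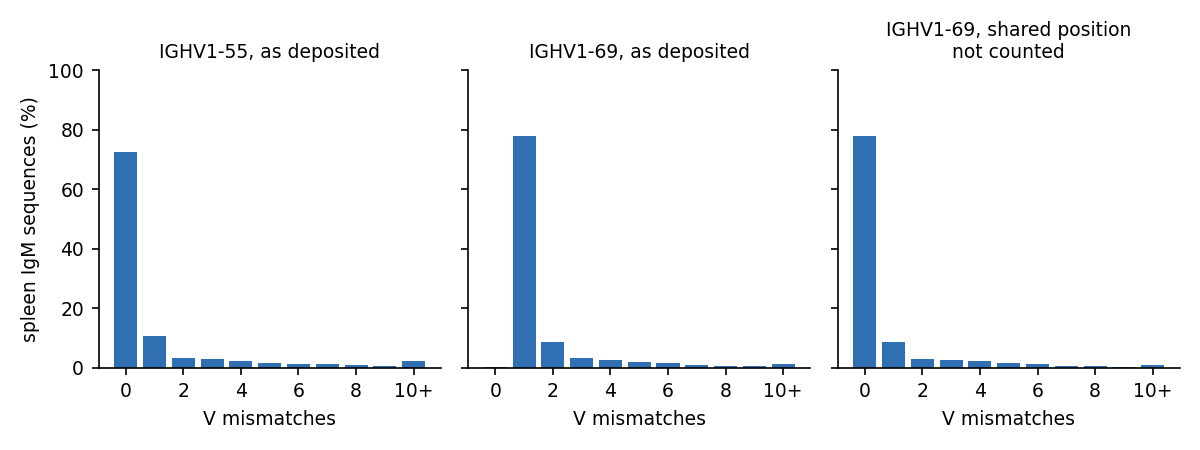
Percent of spleen IgM sequences (y axis) by number of V mismatches (x axis, 10 and more together) for IGHV1-55 as deposited, IGHV1-69 as deposited and IGHV1-69 without the shared position. The main bar of IGHV1-69 moves from 1 mismatch (77.9%) to 0 (77.7%) when the position is left out, next to 72.7% at 0 for IGHV1-55.

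Against all other genes of the same spleen, the unmutated IgM share of IGHV1-69 was 74.8 points lower as deposited, in 24 of 24 mice (0.363% against 75.2%, adjusted p = 2.59e-05 over 88 genes, sign-flip permutation test, two-sided, whose smallest unadjusted p is 1e-05). In this comparison 69.3% of the genes were called, 55.7% as higher and 13.6% as lower. With the position not counted it was 2.01 points higher, in 18 of 24 mice, and did not pass the test (adjusted p = 0.298, permutation test). IGHV1-55 was 1.50 points lower than the rest (71.9% against 73.4%, adjusted p = 0.286, permutation test), lower in 11 of 24 mice, and 3.42 points lower (adjusted p = 0.0206, permutation test) once the position of IGHV1-69 no longer counted in the rest. Of the 88 genes, 4 had under 5% unmutated spleen IgM sequences as deposited, namely IGHV1-69, IGHV1S137, IGHV2-6-1 and IGHV8-5, and the median gene had 77.2%. Only IGHV1-69 was rescored, so IGHV1S137, IGHV2-6-1 and IGHV8-5 stayed in the rest with their deposited scores. Of the other 40 IGHV1 genes tested, 19 were higher and 3 lower, with a median of 3.55 points beside 4.79 over all genes.

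In the LG the unmutated share of all sequences of a gene was compared between NOD-FMT and PBS-T mice. IGHV1-55 had 32.7% in NOD-FMT and 31.4% in PBS-T and did not pass the test (adjusted p = 0.985, exact permutation test over 80 genes). IGHV1-69 had 1.61% and 0.588% as deposited, values that the shared position holds near 0 and that no difference can be read from. With the position not counted it had 39.7% and 30.5%, a difference of 9.18 points that did not pass the test (adjusted p = 0.924, exact permutation test). On the deposited score 0.0% of the 80 genes were called, and 5 had an unadjusted p under 0.05.

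The clonotypes that led to the choice of these genes were joined in part to IGHJ1, 1 of the 4 mouse J segments. Over all spleen clonotypes neither gene favoured IGHJ1. IGHV1-55 clonotypes used IGHJ1 in 12.1% to 17.2% of cases (mean 13.8%), against 15.3% in the remaining genes of the same spleens, a difference of −1.49 points that was negative in 22 of 24 mice (p = 1e-05, the smallest that these permutations can give; adjusted p = 1.87e-05, sign-flip permutation test over 88 genes). IGHV1-69 clonotypes did so in 12.4% to 17.1% (mean 14.7%), −0.528 points from the rest and lower in 17 of 24 mice (adjusted p = 0.0120, permutation test). Most genes differed from the rest in this way, with 79.5% called and 40.9% called lower, so the lower IGHJ1 share was not peculiar to the pair. Of the other 41 IGHV1 genes, 8 were higher and 19 lower, with a median of −0.517 points beside −0.0170 over all genes. IGHV1-55 was 0.928 points below IGHV1-69 of the same mouse, lower in 18 of 24 mice (adjusted p = 0.00398, permutation test). In PBS-T and NC mice alone this difference between the genes was −0.581 points and did not pass (adjusted p = 0.135, permutation test). When clonotypes of a single count were left out, none of the 3 IGHJ1 differences passed the test.

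IGHJ2 was the most used J segment of both genes in the spleen, at a mean of 39.8% of IGHV1-55 and 38.5% of IGHV1-69 clonotypes against 33.9% in the genes other than this pair, and it exceeded the rest of the library in 24 of 24 mice for each gene. IGHJ3 made up 22.6%, 23.0% and 24.3% and IGHJ4 23.8%, 23.7% and 26.6% in the same order. These J shares add up to the whole, so a higher IGHJ2 share implies lower others. In the LG, where each gene had few clonotypes, the IGHJ1 share ranged from 3.12% to 61.1% for IGHV1-55 and from 0% to 80.6% for IGHV1-69, the highest in PBS-T mouse 2.

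HCDR3 lengths lay close together. The mean spleen length was 11.45 residues for IGHV1-55 against 11.51 in the rest, shorter in 19 of 24 mice (−0.0592, adjusted p = 0.00125, sign-flip permutation test over 88 genes, 87.5% of them called). For IGHV1-69 it was 11.53 against 11.51, longer in 17 of 24 mice (0.0255, adjusted p = 0.0596). IGHV1-55 was 0.0820 residues shorter than IGHV1-69 of the same mouse, in 19 of 24 mice (adjusted p = 9e-05, permutation test). In PBS-T and NC mice alone IGHV1-55 was −0.0316 residues from the rest (adjusted p = 0.187) and −0.0357 from IGHV1-69 (adjusted p = 0.0656), neither past the permutation test. With single-count clonotypes left out these 3 differences changed sign, to 0.0574, −0.0388 and 0.0932, none past the test. Of the other 41 IGHV1 genes, 18 were longer and 15 shorter.

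IGHV1-69 carried less IgA than the other genes in the spleen. IgA made up 0.233% to 18.5% of its counts (median 6.57%, mean 7.07% ± 4.57, n = 24), against 11.9% in the rest of the libraries, a difference of −4.86 points that was negative in 20 of 24 mice (adjusted p = 0.000442, sign-flip permutation test over 94 genes). Of these genes 39.4% were called, 2.13% higher and 37.2% lower. PBS-T mouse 2 had the lowest and PBS-T mouse 1 the highest share. IGHV1-55 had IgA in 3.24% to 49.1% of its spleen counts (median 11.3%, mean 13.1% ± 9.7), 1.28 points above the rest, higher in 13 of 24 mice and not past the test (adjusted p = 0.769, permutation test). NC mouse 5 gave its highest value, and without that mouse the difference was −0.288. Of the other 43 IGHV1 genes, 2 were higher and 11 lower, with a median of −1.04 points beside −2.19 over all genes. The mean shares of IgM in the spleen were 69.6% for IGHV1-55, 73.4% for IGHV1-69 and 70.2% for the genes other than this pair, and those of IgG were 11.6%, 9.39% and 11.9%.

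**Figure D4:**
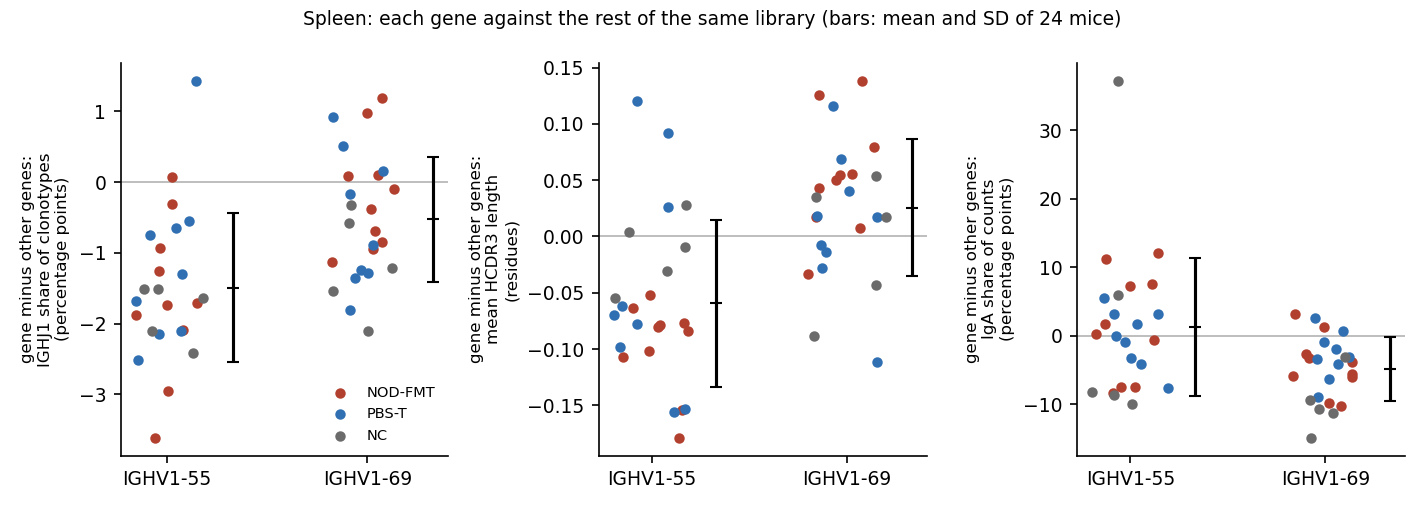
Difference between each gene and all other genes of the same spleen library, for IGHJ1 share of clonotypes (percentage points), mean HCDR3 length (residues) and IgA share of counts (percentage points); each point is 1 mouse, coloured by group, and bars give mean and SD of 24 mice. The IGHV1-55 points of the first panel lie below 0 in 22 mice and the IGHV1-69 points of the last panel in 20, with NC mouse 5 far above the other IGHV1-55 points of the last panel.

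In the LG most counts of both genes were IgA. The median was 95.5% for IGHV1-55, from 26.0% in PBS-T mouse 9 to 99.8%, and 96.6% for IGHV1-69, from 1.59% in PBS-T mouse 2 to 100%. IGHV1-69 counts of 3 glands were mostly of other isotypes, with 1.59% IgA in PBS-T mouse 2, 11.1% in NOD-FMT mouse 9 and 15.8% in NC mouse 2. In the same order, a single clonotype made up 75.4%, 88.7% and 82.7% of the IGHV1-69 counts of the gland. Over all LGs the largest clonotype made up 15.4% to 97.2% of them. Against the rest of the library, IGHV1-69 was 11.5 points lower (77.3% against 88.8%, p = 0.0370, adjusted p = 0.157, sign-flip permutation test over 77 genes, 1.3% called) and IGHV1-55 0.893 points lower (adjusted p = 0.701). Within merged libraries these differences were −6.84 and 0.129 points and within the others −15.5 and −1.76, none past the test.

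Sharing was counted after the filter had dropped sequences held by more than 2 mice, so low sharing was in part fixed in advance. Before the filter, IGHV1-55/IGHJ2/ATDY was in 24 spleens and IGHV1-69/IGHJ2/ARGDY in 22. After it, few clonotypes were shared between mice. IGHV1-55 had 105571 distinct spleen clonotypes, of which 7380 (6.99%) occurred in at least 2 mice, and IGHV1-69 had 84759, of which 4796 (5.66%) did, beside 6.05% over all genes. At least 12 spleens held 29 clonotypes of IGHV1-55 and 4 of IGHV1-69, beside 627 of 3154791 over all genes, and the most widely held occurred in 20 and 16 spleens. In the LG, 83 of 1190 IGHV1-55 clonotypes (6.97%) and 27 of 478 IGHV1-69 clonotypes (5.65%) occurred in at least 2 mice, at most in 7 and 4, beside 6.01% over all genes.

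A clonotype is called stereotypic here when at least 2 mice of 1 treated group and no mouse of the other groups held it in a tissue. The spleens gave 1406 such clonotypes of IGHV1-55 for NOD-FMT and 382 for PBS-T, and 1006 and 219 of IGHV1-69, beside 37913 and 10022 over all genes. NOD-FMT had 1 more mouse and deeper spleens (median 454859 deposited counts against 389289, highest 2302185 against 591813). The spleen of NOD-FMT mouse 3 alone held 593820 clonotypes of all genes, where PBS-T spleens held at most 202547. The part of depth and of that spleen in these numbers was not tested. Only 6 of the NOD-FMT stereotypic clonotypes of all genes were held by 8 or more spleens, and IGHV1-55 gave 2 and IGHV1-69 gave 1 of them. These 3 clonotypes are those for which the genes were chosen. No clonotype of either gene was held by exactly 7 NOD-FMT spleens, where all genes together had 9, and PBS-T clonotypes of each gene reached at most 4 spleens. In the LG, IGHV1-55 had 8 stereotypic clonotypes for NOD-FMT and 6 for PBS-T, and IGHV1-69 had 2 and 7, beside 252 and 309 over all genes. Median deposited LG depth was 164166 counts in NOD-FMT and 57793 in PBS-T. PBS-T mouse 5 alone held 450 LG clonotypes of IGHV1-55 and 212 of IGHV1-69. The part of depth and of that gland in the LG numbers was not tested.

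The HCDR3 of the 3 clonotypes is shown by its most frequent nucleotide sequence in the spleens, since sharing of the amino acid sequence does not tell whether mice made it with the same bases. Lower case marks the unbroken run of bases equal to the end of the germline V segment and, from the other end, to the J segment, and capitals mark the stretch between. That stretch holds the D segment, bases added at the joints and any J bases that lie before a changed base, as in ARDYGSRYWFFDV.
IGHV1-69/IGHJ1 ARWGYFDV: gcaagaTGGGggtacttcgatgtc
IGHV1-55/IGHJ1 ARDYGSRYWFFDV: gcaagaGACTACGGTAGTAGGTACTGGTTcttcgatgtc
IGHV1-55/IGHJ3 ARDRAY: gcaagaGATCGGgcttac
IGHV1-55/IGHJ3 ARDRAY: gcaagaGATCGtgcttac
For ARDRAY the HCDR3 found on most sequences and the one with most counts are both given.

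The clonotype IGHV1-69/IGHJ1/ARWGYFDV was held by 9 of 10 NOD-FMT spleens with 115 counts on 47 sequences. Its counts were 2, 23, 34, 2, 3, 1, 2, 14 and 34 in mice 1, 2, 3, 4, 5, 7, 8, 9 and 10. These are low numbers, and the highest share, in mouse 2, was 23 of 151402 counts (0.0152%, 95% Wilson interval 0.0101 to 0.0228%). IgA made up 89.6% of its counts, IgG 6.96% and IgM 3.48%, and before the filter 64.9%, 27.3% and 7.36%. Of its 5 nucleotide HCDR3 sequences, the one printed above occurred in all 9 mice, with 95 counts on 33 sequences, and only 4 of its 24 bases lay between the V end and the J segment. None of the 47 sequences was unmutated as deposited, and 5 (10.6%) were with the shared position not counted, with a median of 3 other mismatches. Before the filter 29 of 71 (40.8%) were. It was restricted to NOD-FMT only after the contamination filter. Before the filter 11 spleens held it with 231 counts, among them PBS-T mouse 4 with 1 count and PBS-T mouse 7 with 2. The only LG with it was that of NOD-FMT mouse 1, with 28 IgA counts (0.0116%, 0.00801 to 0.0167%).

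The clonotype IGHV1-55/IGHJ1/ARDYGSRYWFFDV was held by 8 NOD-FMT spleens with 770 counts on 161 sequences. The counts were 219, 17, 121, 91, 220, 1, 74 and 27 in mice 1, 2, 3, 4, 5, 6, 7 and 9, so that mouse 6 rested on 1 count and the others on 17 or more. The highest share was 220 of 393961 counts in mouse 5 (0.0558%, 95% Wilson interval 0.0489 to 0.0637%). IgG made up 60.6% and IgA 36.6% of counts, or 46.2% and 50.2% without mouse 5, and 2 of 161 sequences (1.24%), both in mouse 9, were unmutated, with a median of 3 mismatches. Before the filter 7 of 166 (4.22%) were unmutated. The printed HCDR3 sequence, 1 of 12, occurred in all 8 mice with 553 counts on 107 sequences. Before the filter the same 8 mice held it, with 795 counts. It was found in no LG.

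Its HCDR3 differs at 2 of 39 bases from that of IGHV1-55/IGHJ1/ARDYGSSYWYFDV, which is 1 of the 3 IGHV1-55 clonotypes held by 20 spleens. The most frequent nucleotide sequence of each is shown with those bases in capitals.
ARDYGSSYWYFDV: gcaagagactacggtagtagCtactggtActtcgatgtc
ARDYGSRYWFFDV: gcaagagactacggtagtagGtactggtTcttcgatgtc
The widely shared form was held by 20 spleens, 9 of NOD-FMT, 8 of PBS-T and 3 of NC mice, and by 23 before the filter. It had 2064 counts, of which 85.9% were IgM, and 12 of its 489 sequences (2.45%) were unmutated, with a median of 4 mismatches. Among spleens that held it, its share was 0.0117% to 0.137% in PBS-T and 0.00108% to 0.0321% in NOD-FMT. NC mice 1, 3 and 4 had 3, 1 and 1 counts, and 11, 12 and 8 before the filter. These differences between groups were not tested. The form restricted to NOD-FMT was mostly IgG and IgA.

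The clonotype IGHV1-55/IGHJ3/ARDRAY was held by 8 NOD-FMT spleens with 557 counts on 112 sequences. The counts were 97, 2, 305, 1, 3, 103, 45 and 1 in mice 1, 2, 3, 4, 5, 7, 9 and 10, so that 4 of the 8 spleens rested on 3 counts or fewer. The highest share was 97 of 470395 counts in mouse 1 (0.0206%, 95% Wilson interval 0.0169 to 0.0252%). IgM made up 64.1% and IgA 33.9%, which rested on mouse 3, since without it IgM was 34.9% and IgA 61.9% of 252 counts. Of the 112 sequences, 38 (33.9%) were unmutated. After the filter none of its 10 nucleotide HCDR3 sequences in the spleen occurred in more than 2 mice, and before it 2 of 10 did, at most in 4 of 9 mice. Before the filter 9 spleens held it with 712 counts, among them NC mouse 5 with 1 count.

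ARDRAY was also present in LGs of NOD-FMT mice 1, 7 and 9, and there at far higher shares. It carried 21638 counts in mouse 1 (8.95% of the library, 95% Wilson interval 8.84 to 9.06%), 656 in mouse 7 (0.251%, 0.232 to 0.271%) and 1091 in mouse 9 (0.634%, 0.598 to 0.673%). All of them were IgA, apart from 1 IgG count in mouse 7. In mouse 1 this clonotype made up 65.7% of the IGHV1-55 counts of the gland. The most frequent HCDR3 sequence of that gland, with 18782 counts on 383 sequences, was in no other LG.
ARDRAY, LG of NOD-FMT mouse 1: gcaagaGACAGGgcttac
All 3 of these mice held the clonotype in the spleen as well.

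Absence from the other spleens has a limit set by depth. A count of 0 allows a share of up to 3 counts of the total, which in the 14 PBS-T and NC spleens was 0.000533% to 0.00417%. The clonotypes were chosen for counts of 0 in these spleens, so the limits describe depth and test nothing, and the zeros of PBS-T mice 4 and 7 for ARWGYFDV and of NC mouse 5 for ARDRAY come from the filter. The share in NOD-FMT was at or below the lowest limit in 1 of 8 spleens for ARDYGSRYWFFDV, in 2 of 8 for ARDRAY and in 3 of 9 for ARWGYFDV. It was above the highest limit in 6 of 8, 4 of 8 and 2 of 9 in the same order. The remaining shares are of a size that a count of 0 allows in at least 1 of the PBS-T and NC spleens. Intervals and limits cover counting error only.

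**Figure D5:**
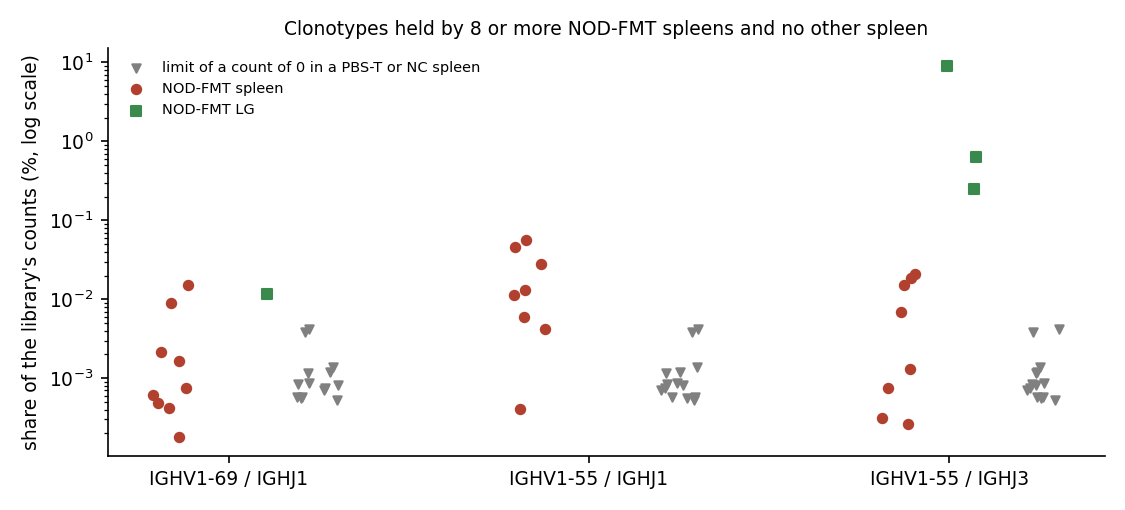
Share of a library's counts (%, log scale) of IGHV1-69/IGHJ1/ARWGYFDV, IGHV1-55/IGHJ1/ARDYGSRYWFFDV and IGHV1-55/IGHJ3/ARDRAY in each NOD-FMT spleen (circles) and LG (squares) that held it, beside the limit that a count of 0 allows in each of the 14 PBS-T and NC spleens (triangles). Only ARDRAY reached high LG shares (8.95% in mouse 1), and 1 of 8, 2 of 8 and 3 of 9 spleen points of ARDYGSRYWFFDV, ARDRAY and ARWGYFDV lie at or below all triangles. In the same order, 6 of 8, 4 of 8 and 2 of 9 lie above all triangles.

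Whole deposited nucleotide sequences of these clonotypes, not the V segment alone, were compared between the spleens after the filter. Any sequence held by more than 2 mice had already been dropped, so low sharing was in part fixed in advance. Of the distinct sequences of ARDYGSRYWFFDV that were left, 0 of 156 occurred in 2 or more mice. For ARDRAY this was 5 of 94 and for ARWGYFDV 1 of 44. Apart from the shared position of IGHV1-69, the most frequent mismatch of each clonotype was carried by 16.1% of ARDYGSRYWFFDV sequences in 2 mice, 20.5% of ARDRAY sequences in 3 mice and 38.3% of ARWGYFDV sequences in 3 mice. Single mismatched positions were shared more widely, by up to 6 of 8 mice for ARDYGSRYWFFDV and by up to 4 mice for each of the others. The contamination filter lowers such counts, and it left 161 of 166 spleen sequences of ARDYGSRYWFFDV, 112 of 123 of ARDRAY and 47 of 71 of ARWGYFDV.

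Each gene's 3 clonotypes in most spleens were named. For IGHV1-55 these were, beside ARDYGSSYWYFDV, IGHJ3/ARGFAY in 20 spleens (9 NOD-FMT, 9 PBS-T and 2 NC) with 130 counts, 76.2% of them IgA, and IGHJ2/ATDY in 20 spleens (9, 7 and 4) with 72 counts, 97.2% of them IgM. For IGHV1-69 they were IGHJ2/ARGDY in 16 spleens (8, 4 and 4) with 47 counts, IGHJ2/ARRGFDY in 13 (7, 3 and 3) with 27, and IGHJ3/ARGAY in 12 (6, 4 and 2) with 41. The filter had removed much of some of them, since before it ATDY had 656 counts in all 24 spleens, ARGFAY 530 in 23 and ARGDY 328 in 22. ARRGFDY had 34 in 16 and ARGAY 60 in 17. After the filter ARRGFDY had 15 nucleotide HCDR3 sequences among 22 sequences, of which 19 (86.4%) were unmutated with the shared position not counted. ARGDY had 14 among 44 with 22.7% unmutated, and ARGAY 6 among 39 with 17.9%. The filter took a larger part of the counts of ARGDY and ARGAY than of ARRGFDY, and unmutated shares before it are not given here. All 3 IGHV1-69 clonotypes were mostly IgM, with 85.1%, 92.6% and 87.8% of counts.

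IGHV1-55/IGHJ3/ARGFTY, named for its LGs and described in the spleen after its values were seen, was held by 19 spleens with 3701 counts, 84.1% of them IgA. These were all 10 NOD-FMT spleens, at 0.00143% to 0.107% of counts (median 0.0182%), and all 9 PBS-T spleens, at 0.00242% to 0.0924% (median 0.0195%). The treated groups overlapped, and NOD-FMT mouse 3 held 2176 of the counts. None of the 5 NC spleens held it, before or after the filter. A count of 0 there allows a share of up to 0.000559% to 0.00383% of the filtered counts. The lowest treated shares, 0.00143% in NOD-FMT and 0.00242% in PBS-T, lie below the highest of these limits. How many clonotypes of all genes show the same split between treated and NC spleens is not given here.

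In the LG the clonotype of IGHV1-55 in most mice after the filter was again IGHJ3/ARGFAY, in 2 NOD-FMT and 5 PBS-T glands with 600 counts, all IgA, of which NOD-FMT mouse 5 held 500. IGHJ3/ARGFTY, which differs from it by 1 residue, occurred in 3 NOD-FMT and 2 PBS-T glands with 138 counts, all IgA, of which NOD-FMT mouse 1 held 99. IGHJ1/ARYYGNFYWYFDV occurred in 2 PBS-T and 3 NC glands, but 750 of its 756 counts were in PBS-T mouse 5, and the other glands held 1 or 2 each. Before the filter the order was the reverse, with ARYYGNFYWYFDV in 11 glands, all 5 of NC among them, with 1439 counts, and ARGFAY in 10 glands, 7 of them PBS-T, with 1791. Of the 1439 counts PBS-T mouse 5 held 1423, and the other glands held 1 to 3 each. The same mouse held 297 of the 300 counts of IGHV1-69/IGHJ2/ARYDGYYGGYYFDY (2 PBS-T and 2 NC glands) and 64 of the 66 counts of an IGHV1-69/IGHJ1 clonotype with an HCDR3 of 15 residues (1 gland of each group), the latter 97.0% IgG.

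The IGHV1-69 clonotype with the highest share of any LG was IGHJ1/ARGGLGRYFDV in PBS-T mouse 2. It had 6844 of 88241 counts there (7.76%, 95% Wilson interval 7.58 to 7.93%) and 5162 of 255339 in the spleen of the same mouse (2.02%, 1.97 to 2.08%). It made up 75.4% of the IGHV1-69 counts of the gland, and without it the gene had 2.53% of the counts, still above the other LGs of its group. The clonotype was 91.9% IgM in the LG, and none of its 192 sequences was unmutated with the shared position not counted and the median was 4 other mismatches. Another PBS-T gland, of mouse 3, held 1 count, and the spleens of PBS-T mice 8 and 6 held 50 (0.00889%) and 1.
IGHV1-69/IGHJ1 ARGGLGRYFDV, most frequent HCDR3: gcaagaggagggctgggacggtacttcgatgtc

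Many LG clonotypes of these genes also occurred in the mouse's own spleen. For IGHV1-55 this held for 343 of 1301, with a median of 45.9% per mouse (1.78% to 71.4%), and for IGHV1-69 for 109 of 508, with a median of 35.7% (0% to 77.8%). The remaining genes had 7609 of 38796 and a median of 33.5%. PBS-T mouse 5, with its many LG clonotypes, had 8 of 450 and 1 of 212 in its own spleen.

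Across the 24 spleens, the log2 share of clonotypes of IGHV1-55 ran most closely with those of IGHV1-53 (r = 0.856), IGHV1-72 (r = 0.675) and IGHV1-61 (r = 0.646), among 74 genes. For IGHV1-69 the closest were IGHV1-72 (r = 0.648), IGHV1-80 (r = 0.570) and IGHV14-2 (r = 0.564), and the pair correlated at r = 0.434 with each other. The genes of a library share its depth and its total, and the values are a description over 24 libraries.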

How the data were processed

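BCR heavy-chain libraries were prepared from LG and spleen RNA by reverse transcription with constant-region primers that carry a UMI and second-strand synthesis with V primers. The authors merged reads with PEAR, built UMI consensus sequences with Clustal Omega without singletons, assigned constant genes by IMGT and variable segments by IgBLAST, and the release of the germline set is not given in the sources used here. Deposited for every unique sequence are its count of UMI consensus sequences, which is not normalized, its fraction of the library and its number of V mismatches. Primers that bind V segments can amplify genes unequally within a library, so orders of genes by level include this, and groups and tissues were compared gene by gene.

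Nucleotide sequences shared by more than 2 mice within a tissue were dropped, as the study's methods word its filter. This took 283069 of 2878417 counts from the LG and 1147969 of 11666610 from the spleen. The study's methods state a loss many times smaller in the LG and several times smaller in the spleen, so the form of its filter may have differed. Clonotype numbers, unmutated shares and the restriction of clonotypes to NOD-FMT given here rest on the harsher filter. Group differences were tested by exact permutation of mice and within-mouse differences by sign flips (100000 resamples), two-sided, with Benjamini-Hochberg adjustment over all genes with a mean share of at least 0.2% or, within libraries, a mean of at least 100 clonotypes, sequences or counts (at least 10 sequences for the unmutated share in the LG). GEO's labels describe the mice as biological replicates, and the depth of each library limits the detection of single clonotypes. Mismatch positions were found by ungapped comparison with GENCODE M21 transcripts, from GRCm38, the build named in the labels as mm10.

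The 2 genes, the clonotype rules and the comparisons were chosen with earlier results of these data known, and the score without the shared position and the tissue comparison without NOD-FMT mice were added after values were seen. Named clonotypes were, for each gene, those in 8 or more NOD-FMT spleens and no other spleen, the 3 in most spleens, the 3 in most LGs and the one with the highest share of an LG. Named genes were the 3 whose spleen usage correlated best. Alternatives were no or a stricter filter, a minimum of 2 counts, usage by counts, thinning, a log2 scale (pseudocount 0.1%), merged or other LG libraries alone, PBS-T and NC mice alone, unique sequences, a replicate block and each mouse left out. The permutation functions were also run on simulated shares with known changes, and the outcome is not given here. Python 3.11.15, NumPy 2.4.6, pandas 2.3.3, SciPy 1.17.1, pyarrow 21.0.0 and Matplotlib 3.10.9 were used.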

Additional observations from a re-analysis of the deposited data

Results flagged for a closer look

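Of 57 sets of values of 1 measure in 1 group and tissue, 15 held a mouse whose gap to the nearest other mouse passed Dixon's 95% criterion, where chance gives about 1 in 20. In the LG, IGHV1-55 carried 13.6% of counts in NOD-FMT mouse 1, next to 4.89% in the nearest gland of its group. IGHV1-69 stood high in the LG of NOD-FMT mouse 9, with 2.77% of clonotypes and 3.07% of counts, and 11.1% of its counts there were IgA, the lowest of its group. In the LG of PBS-T mouse 2 it had 5.54% of clonotypes and 10.3% of counts, next to 1.30% and 1.58%. The IgA share of IGHV1-69 in the LG of NC mouse 2 was 15.8%, next to 97.9%.

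In the spleen, NOD-FMT mouse 2 had the shortest mean HCDR3 of its group for both genes, 10.95 residues for IGHV1-55 and 11.08 for IGHV1-69, and PBS-T mouse 8 had the highest IGHJ1 share of IGHV1-55 clonotypes of its group, 17.2%. IGHV1-69 made up 2.94% of clonotypes in PBS-T mouse 7 and 7.90% of counts in PBS-T mouse 2. The unmutated share of its IgM sequences as deposited was highest in NOD-FMT mouse 2 (1.36%), PBS-T mouse 7 (1.24%) and NC mouse 2 (1.66%). In these spleens position 259 counted as a mismatch in 83.0%, 84.7% and 84.1% of IGHV1-69 sequences, beside 94.7% over all libraries. The part of that scoring in these outlying values was not tested.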

How the results depend on the processing

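Of all recomputed values, 31 reversed, 9 passed the threshold only under the alternative, 6 no longer passed it, and the others kept their direction and side of the threshold. The lower LG share of IGHV1-69 and its lower spleen IgA share passed under every alternative run, and the other differences between tissues, groups or genes are listed where they moved. The cause was not tested. Every deposited V call named 1 gene, so calls of several genes made no alternative.

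For NOD-FMT against PBS-T in the LG, the share of IGHV1-55 reversed to −0.175 with at least 2 counts, −0.0647 on the log2 scale and −0.118 after thinning, and that of IGHV1-69 to 0.0471 in merged libraries. The unmutated LG share of IGHV1-55 reversed to −0.243 without the filter and −4.94 in the other LG libraries. For PBS-T against NC spleens, IGHV1-69 reversed to 0.209 by counts and IGHV1-55 to 0.0900 with at least 2 counts. With at least 2 counts the IGHJ1 differences lost the threshold (IGHV1-55 −0.692, adjusted p = 0.245; IGHV1-69 −0.0730, adjusted p = 0.952; between the genes −0.600, permutation tests), and HCDR3 lengths reversed (0.0574, −0.0388 and 0.0932). In PBS-T and NC mice alone IGHV1-55 HCDR3 (−0.0316), and between the genes IGHJ1 (−0.581) and HCDR3 (−0.0357), did not pass, and without the filter IGHV1-69 HCDR3 passed (0.0379). The unmutated IgM share of IGHV1-55 was 3.13 by share of counts. Not counting the shared position gave −3.42 for IGHV1-55, 2.01 for IGHV1-69 and −5.26 between the genes. By unique sequences the IgA difference of IGHV1-55 passed in the spleen (2.04) and reversed in the LG (1.06, and 0.129 in merged libraries), and that of IGHV1-69 in the LG passed (−11.7, adjusted p = 0.0463, permutation test).

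With 1 mouse left out, NOD-FMT against PBS-T LG shares ranged from −0.295 to 0.228 (IGHV1-55) and −0.495 to 0.180 (IGHV1-69), the latter positive only without PBS-T mouse 2. That of IGHV1-55 was negative without NOD-FMT mouse 1, 2 or 7 or without mouse 1, 3, 4 or 5 of PBS-T. LG against spleen ranged from −0.347 to −0.135 and −1.49 to −1.26, and PBS-T against NC from −0.230 to 0.0469 and −0.316 to −0.212, positive for IGHV1-55 only without NC mouse 2. Differences from the rest of the spleen ranged from −1.62 to −1.40 and −0.603 to −0.460 for IGHJ1, −1.92 to −0.908 and −75.5 to −74.4 for unmutated IgM, −0.0670 to −0.0540 and 0.0206 to 0.0315 for HCDR3, and −0.288 to 1.76 and −5.21 to −4.42 for IgA. IGHV1-69 HCDR3 passed without NC mouse 2 or 3, NOD-FMT mouse 3 or mouse 4 or 5 of PBS-T, and IGHV1-55 IgA was negative without NC mouse 5. LG IgA ranged from −1.47 to −0.192 and −12.9 to −8.27, and unmutated LG shares from −1.85 to 4.06 and −0.0334 to 1.57, negative without NOD-FMT mouse 6 or mouse 5, 6 or 8 of PBS-T for IGHV1-55 and without NOD-FMT mouse 8 for IGHV1-69. Between the genes the ranges were −1.08 to −0.775, 70.8 to 72.7 and −0.0889 to −0.0732.

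Replicate numbers were shared across groups but did not pair the mice. Same-numbered mice correlated at −0.257 to 0.213 over 9 pairs of LGs and at −0.448 to 0.688 over 5 pairs of spleens, and 0 correlated best with their own number. With the number as a block, NOD-FMT against PBS-T gave 0.0891 and −0.349 for LG shares and 1.31 and 1.2 for unmutated LG shares, and PBS-T against NC gave −0.274 and −0.327. Without the pairing of tissues by mouse, the LG against spleen difference of IGHV1-69 passed (adjusted p = 8.6e-05) and that of IGHV1-55 did not (adjusted p = 0.528, permutation tests).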
